A study of Mus musculus with 23 samples.

Results

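The miR-29 family is a group of microRNAs (miRNAs) that mouse liver makes from 4 hairpin precursors. Its members were chosen by name from the deposited table of small RNA read counts, and all 7 of the 7 named mature miRNAs were listed among the 1218 mature miRNAs of the table. They were mmu-miR-29a-3p, mmu-miR-29b-3p and mmu-miR-29c-3p, which come from the 3′ arms of the hairpins, and mmu-miR-29a-5p, mmu-miR-29b-1-5p, mmu-miR-29b-2-5p and mmu-miR-29c-5p, which come from the 5′ arms. The prefix mmu, for mouse, is mostly left out from here on. All 7 also passed the filter on low counts that left 386 miRNAs to be tested.

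The libraries came from whole liver of 23 male C57bl/6J mice that were killed while fasting. The reference group (STD_Cont in the labels, n = 8) descended from a control lineage, bred over successive generations on a growing diet with added high-oleic sunflower oil, and was challenged with a low-fat diet. The HFoleic group (HFD_Cont, n = 8) had the same lineage and was challenged with a high-fat, high-sucrose diet. The HFepa group (HFD_O3, n = 7) received that same obesogenic diet but descended from an omega 3 lineage, bred with added fish oil rich in eicosapentaenoic acid (EPA). HFoleic vs. reference therefore compared diets within a lineage, HFepa vs. HFoleic compared lineages on a diet, and HFepa vs. reference differed in both. No genetic change was introduced in any group, and the age of the mice was not given in the sources used here.

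Library depth moved with the groups. The total of counts ranged from 5242218 to 8139344 in the reference, from 4340903 to 7220112 in HFoleic and from 3725432 to 4947990 in HFepa, so that every HFepa library was shallower than every reference library. The part of depth in the results was not tested. The hepatocyte marker miR-122-5p took between 1.36% and 2.24% of the counts, rank 11 of the table. The summed markers of skeletal muscle were between 1.42 and 12.2 CPM (read counts scaled to a common library total) in HFoleic, and those of pancreas between 9.23 and 34.1 CPM. In HFepa they were between 2.60 and 6.93 CPM and between 10.5 and 18.4 CPM. In the reference they reached 215 CPM in library 4, mostly from miR-133a-3p, and 2021 CPM in library 5, from miR-375-3p. Outside library 3, the other muscle markers, miR-1a-3p and miR-206-3p, were at most 8.99 and 0.719 CPM in any library. The other pancreas markers, miR-216a-5p and miR-217-5p, were at most 0.893 and 0.536 CPM.

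A miRNA guides a silencing complex to messenger RNAs, mainly through the seed, a short stretch near its 5′ end that pairs with sites in 3′ untranslated regions (UTRs). The miR-29 family is best known for restraining collagens and other extracellular matrix genes, in the liver above all in hepatic stellate cells, the cells that lay down scar tissue. In hepatocytes it has also been tied to insulin signalling and glucose production, which is why its level under an obesogenic diet is of interest. Of the arms of a hairpin, one is usually retained in the complex and the other is mostly degraded.

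The mature sequences below, from RefSeq on GRCm38.p6, show what the 7 members share. They run 5′ to 3′, and the capitals mark the seed (bases 2 to 8).
mmu-miR-29a-3p: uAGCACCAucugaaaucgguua
mmu-miR-29c-3p: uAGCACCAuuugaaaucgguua
mmu-miR-29b-3p: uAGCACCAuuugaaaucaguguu
mmu-miR-29a-5p: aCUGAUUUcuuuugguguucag
mmu-miR-29c-5p: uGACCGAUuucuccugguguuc
mmu-miR-29b-1-5p: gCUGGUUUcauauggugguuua
mmu-miR-29b-2-5p: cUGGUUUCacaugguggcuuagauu

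The 3 arms on the 3p side carried the same seed, AGCACCA, and no other of the 1679 mature names in the RefSeq table had it. None of the 5p arms had that seed. Counted from the 5′ end, miR-29a-3p and miR-29c-3p differed by a single substitution, C10U, while miR-29b-3p differed from miR-29c-3p by A18G, G21U and U22A. The authors' alignment tolerated mismatches, so reads with an error at position 10 could be assigned to the wrong one of miR-29a-3p and miR-29c-3p. Their separate counts are uncertain to that extent.

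The hairpins lie in a pair of clusters. Mir29a (chr6:31062660-31062747, GRCm38.p6, minus strand) and Mir29b-1 (chr6:31063023-31063093, minus strand) were 275 bases apart. Mir29a overlapped no annotated host gene, and 2 bases of Mir29b-1 fell in an exon of the lincRNA Gm27019. Mir29b-2 (chr1:195037040-195037120, plus strand) and Mir29c (chr1:195037547-195037634, plus strand) were 426 bases apart. Both lay in exons of the noncoding transcript A330023F24Rik and, on the opposite strand, in an exon annotated to Cd46. Both miR-29b hairpins give the same miR-29b-3p, so its reads cannot be assigned to a cluster, whereas miR-29b-1-5p and miR-29b-2-5p can.

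The match to the shared seed, TGGTGCT in the sense strand, was searched in the longest annotated 3′ UTR of 10 extracellular matrix genes and 10 genes of hepatic insulin signalling. It was present in 8 of the 10 matrix genes, with 15 matches in all, and in 6 of the 10 insulin signalling genes, with 6 matches. Both lists cover roles the family is already known for, so these counts are descriptions and not independent evidence of targeting. Of all 20785 genes with a 3′ UTR, 2737 (13.2%) had at least 1 match. Among UTRs of like length to each listed gene, the share with a match ranged from 9.12% to 22.9% for the matrix genes and from 7.14% to 43.3% for the insulin signalling genes, whose UTRs are longer. The matches below are shown with 10 bases before and 8 after, with the match in capitals, for fibrillar and basement membrane collagens, the regulatory subunit of phosphoinositide 3-kinase (Pik3r1) and a regulator of sterol synthesis (Insig1).
Col1a1: aaggaatttcTGGTGCTatagaagc
Col3a1: aatgtctcaaTGGTGCTataataaa
Col4a1: cgtcacaacaTGGTGCTactccccc
Pik3r1: cctttaaccaTGGTGCTtgttaacg
Insig1: gggaggttgaTGGTGCTtaacagag

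No match was found in the UTRs used for Col1a2, Sparc, Insr, Irs2, Akt2 and Pck1. A match of letters is a description and not a measured site. The messenger RNA of these genes was not analysed here.

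The 7 members spanned more than 3 orders of read abundance, in a fixed order for the abundant ones. Levels are given as CPM, read counts scaled to a common library total, with trimmed mean of M-values (TMM) factors. Adapter ligation is known to favour some sequences over others, so the order below is one of reads. Over the 23 libraries miR-29a-3p averaged 3198 ± 293 CPM (SD, n = 23) and ranked 32 of 1218. It was followed by miR-29c-3p at 625 ± 82.0 CPM (rank 66) and miR-29b-3p at 96.2 ± 10.5 CPM (rank 134). The 5p arms were far scarcer. Their means were 11.6 ± 2.24 CPM for miR-29a-5p, 5.53 ± 1.46 for miR-29c-5p, 2.05 ± 0.808 for miR-29b-1-5p and 1.62 ± 0.471 for miR-29b-2-5p.

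In all 23 libraries miR-29a-3p exceeded miR-29c-3p, miR-29c-3p exceeded miR-29b-3p, miR-29b-3p exceeded miR-29a-5p and miR-29a-5p exceeded miR-29c-5p. Below these the order was not fixed in every library. miR-29c-5p had more reads than miR-29b-1-5p in 22 libraries and fewer in 1. miR-29b-1-5p had more reads than miR-29b-2-5p in 14 libraries, as many in 3 and fewer in 6, with between 5 and 23 reads a library for the former and between 5 and 16 for the latter. The family took 0.393% ± 0.0275 (SD, n = 23) of all counts, and 99.5% of its reads came from the 3p arms. miR-29a-3p alone supplied 81.2% ± 1.84 of the family's reads, miR-29c-3p 15.8% ± 1.76 and miR-29b-3p 2.46% ± 0.313.

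**Figure D1:**
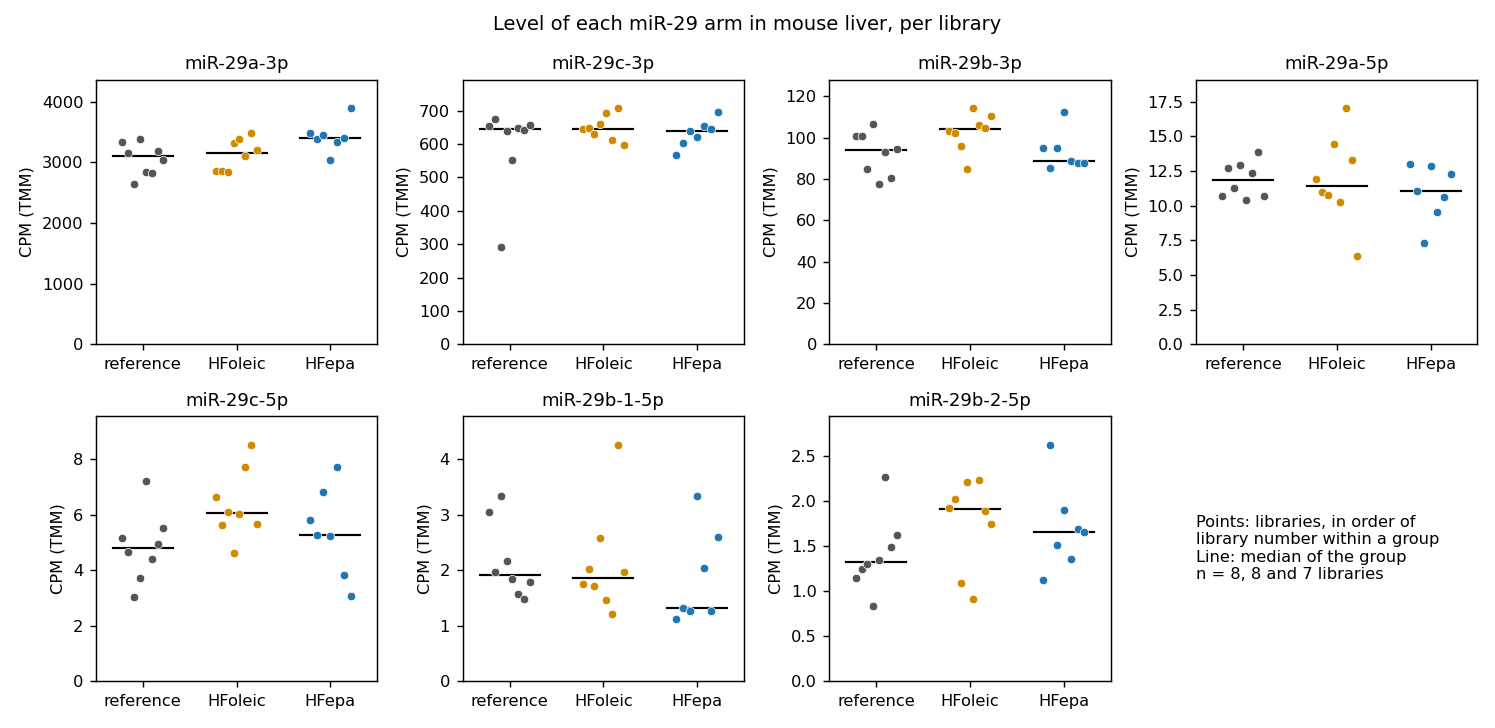
Level of each of the 7 miR-29 arms (CPM with TMM factors, linear axes from 0, each panel with its own scale) in every liver library of the reference, HFoleic and HFepa groups. Points are libraries and lines are group medians. The groups overlap in every panel, and the lowest point of the miR-29c-3p panel is reference library 3, at 290 CPM.

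The main arm, miR-29a-3p, ranged from 2650 to 3386 CPM in the reference (median 3099), from 2850 to 3492 CPM in HFoleic (median 3161) and from 3037 to 3898 CPM in HFepa (median 3408). The groups overlapped, with the HFepa libraries toward the upper end. The biological coefficient of variation fitted for miR-29a-3p was 11.8%, against a median of 22.4% over the 386 tested miRNAs, and 8 of them had a lower one. Among the 18 tested miRNAs with a mean within 2-fold of it, 2 had a lower one.

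The partner arm miR-29c-3p ranged from 290 to 675 CPM in the reference (median 645), from 597 to 708 CPM in HFoleic (median 646) and from 567 to 697 CPM in HFepa (median 638). The 3 medians lay within a few percent of each other, and the reference range was wide because of library 3 alone. Without it the lowest reference library had 552 CPM. miR-29b-3p, the product of both miR-29b hairpins, ranged from 77.4 to 107 CPM in the reference (median 93.9), from 84.8 to 114 CPM in HFoleic (median 104) and from 85.1 to 112 CPM in HFepa (median 88.6).

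Of the 5p arms, miR-29a-5p had medians of 11.8, 11.4 and 11.03 CPM in the reference, HFoleic and HFepa, over ranges of 10.4 to 13.9, 6.33 to 17.03 and 7.33 to 13.0 CPM. miR-29c-5p had medians of 4.80, 6.06 and 5.25 CPM, over ranges of 3.04 to 7.22, 4.62 to 8.52 and 3.07 to 7.71 CPM. Both overlapped throughout, and miR-29c-5p was highest by median in HFoleic. The scarcest arms were miR-29b-1-5p, with medians of 1.91, 1.86 and 1.31 CPM, and miR-29b-2-5p, with medians of 1.32, 1.91 and 1.65 CPM. At fewer than 25 reads in any library, counting error alone gave these arms coefficients of variation of 30.0% and 34.1%.

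The first comparison, HFoleic vs. reference, asked whether the obesogenic diet changed the family within the control lineage. None of the 7 members was called by edgeR's quasi-likelihood test with both a Benjamini-Hochberg adjusted p under 0.05 and a log2 fold change beyond 0.25 in either direction, against 12.4% of the 386 miRNAs tested (19 higher, 29 lower). At an unadjusted p under 0.05 there was 1 member of 7, against 28.5% of all miRNAs. DESeq2 and limma after quantile normalization likewise called none and had 1 member each at that unadjusted level. In edgeR the member was miR-29c-5p, at a log2 fold change of 0.40 (SE 0.18, 95% interval 0.021 to 0.78, edgeR adjusted p = 0.151). Its higher value rested on 21 to 43 reads a reference library and 25 to 39 an HFoleic library. Without reference library 3 its log2 fold change was 0.32, the lowest when each library was left out in turn.

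The 3p arms were bounded more tightly in this comparison. The log2 fold change was 0.040 for miR-29a-3p (SE 0.062, interval -0.089 to 0.17, edgeR adjusted p = 0.694). It was 0.13 for miR-29c-3p (SE 0.11, interval -0.11 to 0.36, edgeR adjusted p = 0.496), and 0.028 when reference library 3 was left out. For miR-29b-3p it was 0.15 (SE 0.080, interval -0.011 to 0.32, edgeR adjusted p = 0.208), with 7 of 8 HFoleic libraries above the reference median. The other 5p arms were at -0.00086 (miR-29a-5p), -0.032 (miR-29b-1-5p) and 0.31 (miR-29b-2-5p), each with an interval that held 0. The median log2 fold change was 0.13 over the 7 members and -0.0024 over all 386 miRNAs.

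In the second comparison, HFepa vs. reference, diet and lineage differed together. Again edgeR called 0 of 7 members, against 15.8% of the 386 miRNAs (20 higher, 41 lower), and at an unadjusted p under 0.05 there was 1 member, against 28.5% of all. DESeq2 called none, with 1 member at that unadjusted level, and limma after quantile normalization called none, with 0. In edgeR the member was the abundant miR-29a-3p, with 6 of 7 HFepa libraries above the reference median and a log2 fold change of 0.17 (SE 0.064, interval 0.034 to 0.30, edgeR adjusted p = 0.0755). Leaving out each library in turn gave log2 fold changes of 0.14 to 0.21 and edgeR adjusted p values of 0.0356 to 0.159, of which 6 of 23 were under 0.05. None of these passed the fold threshold. In edgeR, 0 members were at an unadjusted p under 0.05 with library sizes in place of TMM factors or with no filter. There was 1 with DESeq2 size factors, with only the 2 groups compared, or with at least 10 counts in every library. Without reference library 3 the members called numbered 0 of 7 as well.

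The remaining members moved less or less surely. The log2 fold changes were 0.089 for miR-29c-3p (SE 0.12, interval -0.16 to 0.33), 0.010 for miR-29b-3p (SE 0.083, interval -0.16 to 0.18) and -0.12 for miR-29a-5p (SE 0.16, interval -0.44 to 0.21). Without reference library 3 the value of miR-29c-3p was -0.011. miR-29c-5p, miR-29b-1-5p and miR-29b-2-5p were at 0.16, -0.21 and 0.26, with intervals that spanned 0. The median over the 7 members was 0.089, against -0.057 over all 386 miRNAs. Both comparisons with the reference share its 8 libraries, so their values are not independent.

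The third comparison, HFepa vs. HFoleic, asked whether the lineage changed the family on the same diet. edgeR called 0 of 7 members and 0% of the 386 miRNAs. At an unadjusted p under 0.05 there were 0 members, against 5.7% of all miRNAs, while DESeq2 had 1 and limma after quantile normalization 0, and neither called any. miR-29a-3p had the lowest p of the members, at a log2 fold change of 0.13 (SE 0.064, interval -0.0061 to 0.26, edgeR adjusted p = 0.865). miR-29b-3p lay on the other side, at -0.14 (SE 0.083, interval -0.31 to 0.028, edgeR adjusted p = 0.901), with 1 of 7 HFepa libraries above the HFoleic median. miR-29c-3p was at -0.037 (interval -0.28 to 0.21), and the 4 arms on the 5p side were between -0.24 and -0.052. The median over the 7 members was -0.12, against -0.023 over all 386 miRNAs.

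In each of the 3 comparisons the 95% intervals of the same 4 members, miR-29a-3p, miR-29b-3p, miR-29c-3p and miR-29a-5p, stayed within 0.5 on the log2 scale in either direction. For the scarcer miR-29c-5p, miR-29b-1-5p and miR-29b-2-5p the intervals did not bound the difference that closely. A p that missed the threshold does not show that the groups had equal levels.

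**Figure D2:**
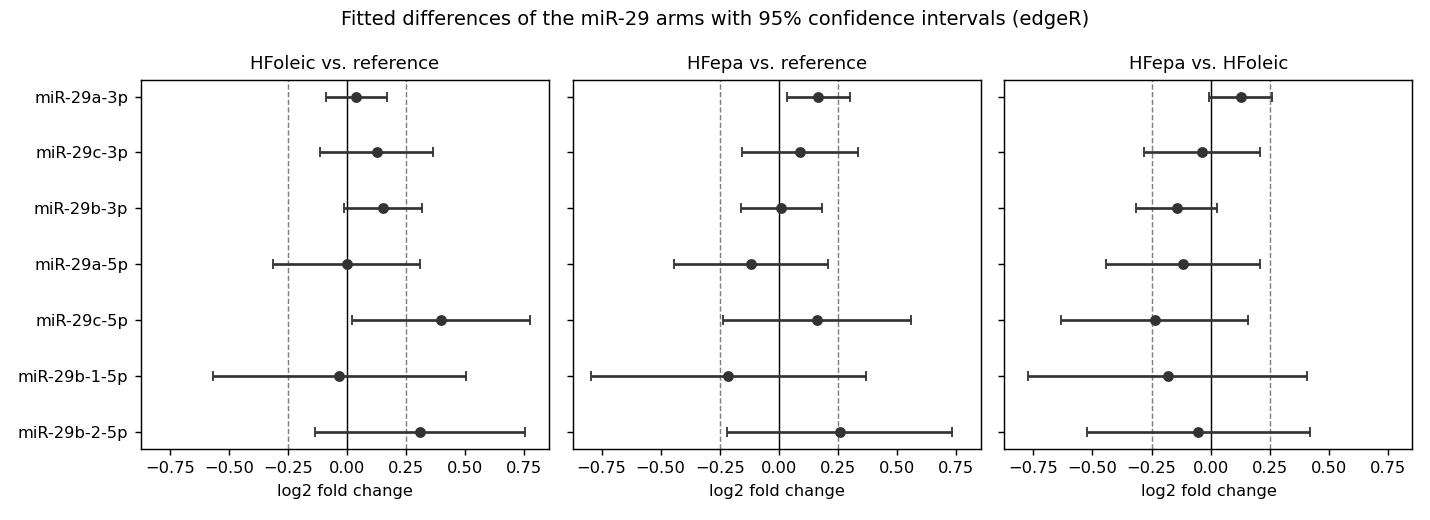
Fitted log2 fold change (horizontal axis) of each miR-29 arm in the 3 comparisons, from edgeR over all 23 libraries. Points are estimates, bars are 95% confidence intervals and dashed lines mark the fold threshold of 0.25 in either direction. The intervals of the 3p arms are the narrowest, and that of miR-29a-3p in HFepa vs. reference runs from 0.034 to 0.30.

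The level of miR-29a-3p also differed with the library numbers given in the labels, a pattern not particular to it. Within HFoleic, libraries 9 to 11 had 2850 to 2865 CPM, while libraries 12 to 15 and 23 had 3113 to 3492 CPM, without overlap. Of the 386 tested miRNAs, 72 (18.7%) were likewise without overlap between these sets of 3 and 5 libraries, and miR-29a-3p was the only one of the 7 members among them. The reference libraries are numbered 1 to 8 and the HFepa libraries 16 to 22, so number and group largely coincide. What the numbers stand for (an order of preparation, for instance) was not given in the sources used here.

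With a term for numbers 1 to 11 against 12 to 23, the log2 fold change of miR-29a-3p became -0.095 in HFoleic vs. reference and -0.043 in HFepa vs. reference, with edgeR adjusted p values of 0.669 and 0.971. The same term brought the calls over all 386 miRNAs from 48 to 1 and from 61 to 0 in these comparisons. Only HFoleic had libraries on both sides of that cut, so the term was estimated from its sets of 3 and 5 libraries. This lowers the precision of both comparisons, so a lost call does not show that a difference was absent. Among libraries 1 to 11 alone the log2 fold change of miR-29a-3p was -0.089 in HFoleic vs. reference. Among libraries 12 to 23 alone it was 0.061 in HFepa vs. HFoleic. For HFepa vs. reference no block of numbers held both groups, so there the number and the group cannot be told apart.

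**Figure D3:**
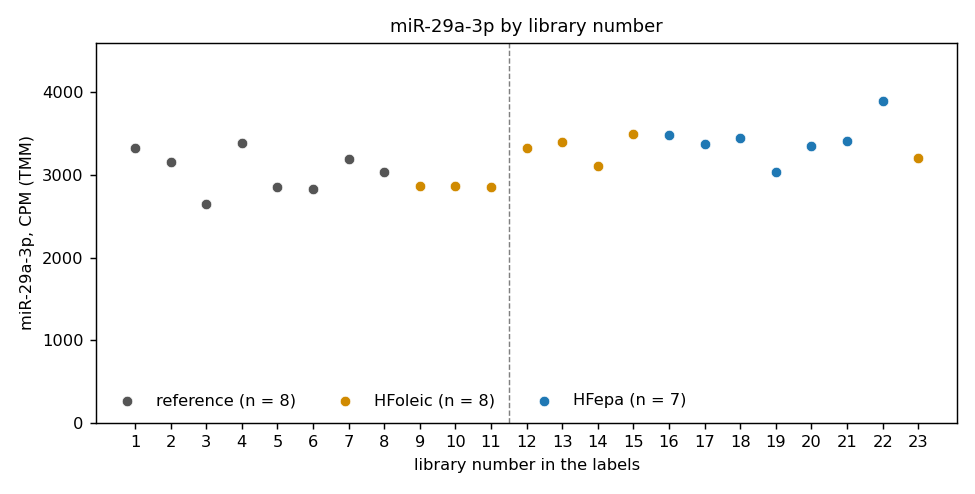
miR-29a-3p (CPM with TMM factors, axis from 0) against the library number in the labels, with groups in colour and a dashed line between numbers 11 and 12. HFoleic libraries 9 to 11 lie at 2850 to 2865 CPM and the later HFoleic libraries at 3113 to 3492 CPM.

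Ratios of read counts between members need no scaling between libraries. The ratio of miR-29a-3p to miR-29c-3p, which compares the products of the clusters on chromosomes 6 and 1, ranged from 4.36 to 9.14 in the reference (median 5.03), from 4.42 to 5.38 in HFoleic (median 4.91) and from 4.90 to 6.14 in HFepa (median 5.41). On the log2 scale it was 2.44 ± 0.106 (SD, n = 7) in HFepa and 2.27 ± 0.103 (SD, n = 8) in HFoleic. That difference of 0.17 had p = 0.00917 in a two-sided exact permutation test and p = 0.0825 after Benjamini-Hochberg adjustment over the 9 ratio tests. Among libraries 12 to 23 alone the difference was 0.097, with an exact permutation p of 0.273 adjusted over the ratio tests of this comparison only. Without HFepa library 19 the difference over the remaining libraries was 0.19 (adjusted exact permutation p = 0.0225), and without HFoleic library 23 it was 0.19 (adjusted exact permutation p = 0.0315).

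Reference library 3 decided what the reference showed for this ratio. HFepa vs. reference differed by 0.040 on the log2 scale with it (adjusted exact permutation p = 0.926) and by 0.15 without it (adjusted exact permutation p = 0.0708). HFoleic vs. reference differed by -0.13 with it and by -0.012 without it. Of the 9 tests none passed after adjustment with all libraries.

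The arm ratios compare the retained with the mostly degraded strand of a hairpin. The ratio of miR-29a-3p to miR-29a-5p ranged from 229 to 312 in the reference (median 255), from 183 to 507 in HFoleic (median 262) and from 236 to 471 in HFepa (median 317). Its HFepa vs. reference difference was 0.30 on the log2 scale (exact permutation p = 0.0256, adjusted p = 0.115). Without HFepa library 19 it was 0.37, with an adjusted exact permutation p of 0.0225. The ratio of miR-29c-3p to miR-29c-5p had medians of 128, 104 and 115 in the reference, HFoleic and HFepa, and no adjusted exact permutation p below 0.437.

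**Figure D4:**
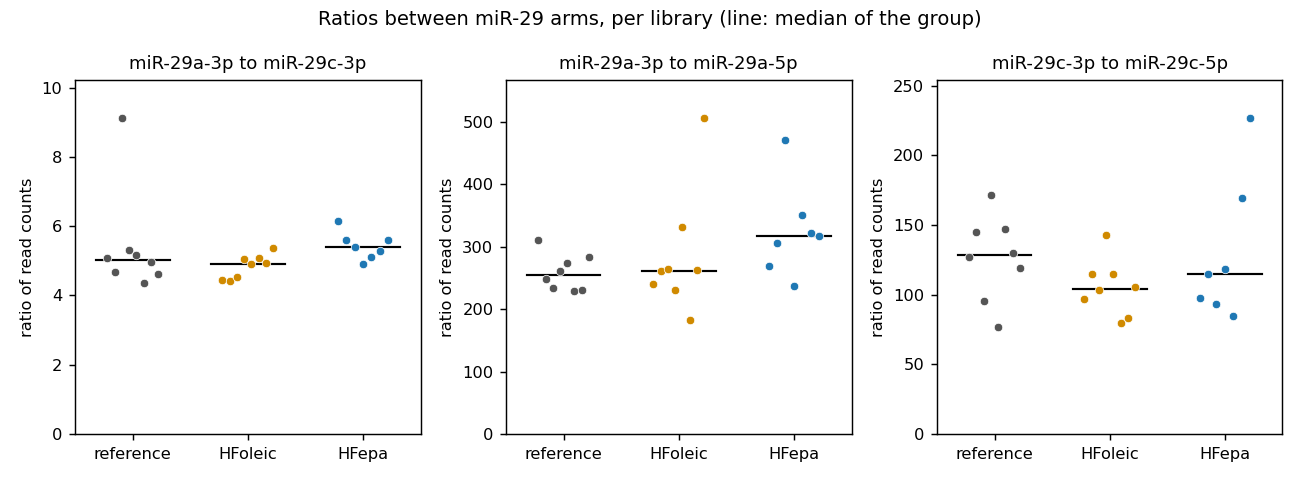
Ratios of read counts between miR-29 arms in each library (vertical axes from 0), by group, with lines at the group medians. In the left panel reference library 3 stands at 9.14, while the other 22 libraries lie between 4.36 and 6.14.

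Reference library 3 stood apart well beyond the miR-29 family. Of the 259 miRNAs averaging 10 CPM or more it was the extreme of all 23 libraries for 113 (43.6%), while each other library was so for 6 to 48. Its TMM factor was 1.26, against 0.930 to 1.13 in the others. In this library miR-29c-3p was at 0.449 of the median of the other libraries, below each of them, and by library size alone it was still lowest, at 0.561. The other members did not follow on both scales. miR-29a-3p was lowest in library 3 with TMM factors, at 0.811 of that median, but within the range of the others by library size, at 1.04. miR-29c-5p was likewise lowest with TMM factors, at 0.546, and within the range by library size, at 0.694.

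Marker miRNAs of several cell types moved in the same library. The hepatocyte markers miR-122-5p, miR-192-5p and miR-194-5p were at 0.560, 0.466 and 0.472 of the median of the other libraries, and all 3 were below each of them. Their summed level was 112892 CPM in library 3, against 206827 to 249553 in the other reference libraries, 211783 to 265675 in HFoleic and 209632 to 256339 in HFepa. Most of the sum in library 3 was miR-192-5p, at 98086 CPM. All 6 markers of stellate cells and fibroblasts were above every other library. Their sum was 42525 CPM, against 23450 to 33222 in the other reference libraries, 19868 to 28555 in HFoleic and 23478 to 30360 in HFepa. Most of it in library 3 was miR-143-3p, at 39902 CPM.

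The same held for all 5 leukocyte markers (2923 CPM against 1191 to 2143 in the other libraries) and all 5 markers of biliary epithelium (1094 CPM against 151 to 333). miR-429-3p, a biliary marker, was at 8.02 times the median of the others. These directions were the same by library size alone. Muscle and pancreas markers were within the range of the other libraries, with miR-206-3p and miR-216a-5p at 0. In whole liver, fewer cells of a type and less RNA per cell cannot be told apart, and the part of these cell types in the low miR-29c-3p was not tested.

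Across libraries, miR-29a-3p and miR-29c-3p varied together more than any other of 9 pairs of members. With each value centred on its group mean, Pearson's r was 0.54 (permutation p adjusted over the 9 pairs = 0.0177) and Spearman's rho was 0.52 (adjusted permutation p = 0.0534), over 23 libraries. Without the libraries farthest from the median of miR-29a-3p, reference library 3 and HFepa library 22, r was 0.42. Within libraries 1 to 11 r was 0.71 and within libraries 12 to 23 it was 0.58. The relation depended on the scaling, since with library sizes in place of TMM factors r was 0.076. Both values of a pair share a library's scaling factor.

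No other pair passed, with r between -0.29 and 0.27 and adjusted permutation p of at least 0.797 for r and 0.641 for rho. These included members of the same cluster (miR-29a-3p with miR-29b-1-5p, r = 0.086, rho = 0.063, and miR-29c-3p with miR-29b-2-5p, r = 0.019, rho = -0.057) and arms of the same hairpin (miR-29a, r = 0.090, rho = 0.18, and miR-29c, r = 0.27, rho = -0.020). The scarce 5p arms carry large counting error, and a weak correlation in such counts says little.

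**Figure D5:**
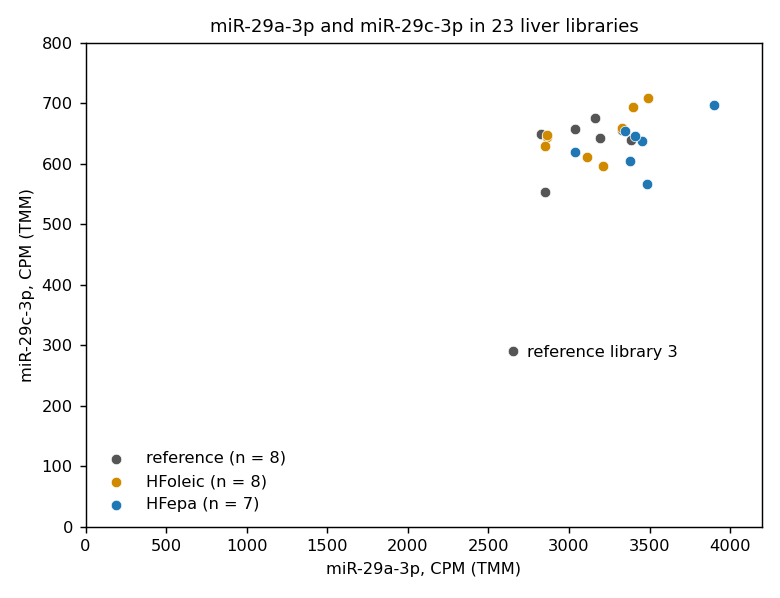
miR-29c-3p against miR-29a-3p in the 23 liver libraries (both in CPM with TMM factors, axes from 0), coloured by group. Reference library 3, at 2650 and 290 CPM, lies below the other libraries, whose miR-29c-3p levels are 552 to 708 CPM.

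The miRNAs outside the family whose group-centred level was most like that of a member were listed for the main arms, among the 255 tested ones averaging 10 CPM or more. For miR-29a-3p these were miR-126a-3p (r = 0.76), an endothelial miRNA, miR-26a-5p (0.74), miR-1948-3p (0.73), miR-1948-5p (0.71) and miR-30e-5p (0.66), over 23 libraries. Without reference library 3 their r was 0.72, 0.69, 0.66, 0.64 and 0.57. For miR-29c-3p they were miR-203-3p (0.94), miR-203b-5p (0.92), the hepatocyte markers miR-194-5p (0.90) and miR-192-5p (0.89), and miR-101b-3p (0.89).

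The likeness of miR-29c-3p rested largely on library 3. Without it r fell to 0.62 for miR-203-3p, 0.54 for miR-203b-5p, 0.59 for miR-194-5p, 0.22 for miR-192-5p and 0.42 for miR-101b-3p. The most alike were then miR-30c-5p (0.75), miR-22-3p (0.72), let-7d-5p (0.70) and miR-28a-5p (0.68), with miR-203-3p in the fifth place. All these values share libraries and scaling factors and are descriptions.

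Other miRNAs of the same pathways were read from lists of collagen and stellate cell biology (14 miRNAs, all tested) and of hepatic insulin signalling (11 miRNAs, all tested). Of these, 6 and 3 were also in the lists of cell type markers. In the collagen list edgeR called 1 lower and 0 higher in HFoleic vs. reference, against 12.4% of all tested, and 2 lower and 0 higher in HFepa vs. reference, against 15.8%. Its median log2 fold changes were -0.18 and -0.17.

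One of the lower ones was miR-133a-3p, a muscle miRNA, at -2.64 in HFoleic (edgeR adjusted p = 0.0391) and -2.85 in HFepa (edgeR adjusted p = 0.0340). Both calls rested on reference library 4, where it was at 205 CPM, since without that library the values were -0.15 and -0.36 and neither was called. Without reference library 5 it was called in HFepa vs. reference but not in HFoleic vs. reference, at -2.74 (edgeR adjusted p = 0.0631). The other was miR-222-3p, at -0.60 in HFepa (edgeR adjusted p = 0.0137), which turned to 0.25 with the term for library numbers.

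In the insulin signalling list 2 were called higher in HFoleic vs. reference, against 12.4% of all tested in either direction, and 0 in HFepa vs. reference, against 15.8%. The list's medians were 0.10 and 0.12. miR-33-5p, encoded within a sterol regulator gene, was at 0.58 (edgeR adjusted p = 0.0278), also called without reference library 3 or 4 but not without library 5 (0.46, edgeR adjusted p = 0.0631). miR-107-3p, known to restrain insulin sensitivity, was at 0.39 (edgeR adjusted p = 0.0357), but at an edgeR adjusted p of 0.0661 without reference library 4 and of 0.0912 without library 5. With the term for library numbers neither was called. miR-33-5p was then at 0.54 and miR-107-3p at 0.33 (edgeR adjusted p = 0.415 and 0.437). In HFepa vs. HFoleic no miRNA of either list was called, and the difference between the lists and the family was not tested.

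Some cell type markers also differed between the groups. The leukocyte miRNA miR-150-5p fell in HFoleic (-0.94, edgeR adjusted p = 0.0174) and in HFepa (-1.40, edgeR adjusted p = 0.00122), as the only called one of 5 leukocyte markers, and without library 3 it was called as well. With the term for library numbers it was at -0.36 and -0.31 and not called. Of 5 biliary markers only miR-429-3p was called, lower in HFepa (-1.22, edgeR adjusted p = 0.0340), and without library 3 it was at -0.48 and not called. The summed biliary markers had medians of 191 CPM in the reference and 216 CPM in HFepa. The pancreatic miR-375-3p was called lower in HFoleic (-3.87, edgeR adjusted p = 0.0199) and in HFepa (-4.19, edgeR adjusted p = 0.0137), with 2020 CPM in reference library 5. Without that library it was at -0.32 and -0.62 (edgeR adjusted p = 0.560 and 0.240) and not called. With the term for library numbers it was at -3.33 and -3.19 (edgeR adjusted p = 0.426 and 0.723) and not called either.

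Of 2 endothelial markers only miR-126a-5p was called, higher in HFepa vs. reference (0.251, edgeR adjusted p = 0.0416), where miR-29a-3p was at 0.17. The other, miR-126a-3p, was at 0.12 there (edgeR adjusted p = 0.210). Without library 3 miR-126a-5p was at 0.20 and without reference library 5 at 0.23, both under the fold threshold. With the term for library numbers miR-126a-5p was at 0.0033. The summed endothelial markers had 13884 to 20326 CPM in the reference, 18211 to 26002 in HFoleic and 19642 to 23667 in HFepa. The lowest of these was library 3, where both arms of miR-126a were below every other library with TMM factors but within their range by library size alone. Of the hepatocyte, red blood cell and stellate cell and fibroblast markers none was called in any comparison. The part of these markers in the values of the family was not tested.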

How the data were processed

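Total RNA was extracted from frozen liver with Trizol, and small RNA libraries were made with the TruSeq Small RNA kit. Per the study's methods, the authors removed adapters with FASTX-Toolkit, aligned single-end reads with Bowtie, tolerating mismatches, and annotated them with ncPRO-seq and miRBase. The submitters' processing notes name the mm10 build and bcl2fastq 2.17.1.14. The authors deposited raw read counts per mature miRNA, which alone were used (23 columns). Counts divided by a size factor (23 columns), group means (3) and the authors' fold changes and p-values (9) were left out. Libraries of 1 group differed beyond counting error in all 77 pairs.

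edgeR 4.0.16 in R 4.3.3 was fitted once to the 3 groups, with TMM factors, filterByExpr by group, the quasi-likelihood test and Benjamini-Hochberg adjustment over 386 miRNAs. Standard errors are the size of a log2 fold change over the square root of F. The methods' DEGseq was not used, since it takes no spread between mice, and their fold threshold of 0.25 was read as log2. DESeq2 1.42.0 and limma 3.58.1 were alternatives. The fits were also run on counts simulated with the means, spread and library sizes of these data. Those counts held no difference by library number and no library like reference library 3, so that run cannot bear on either. Log2 CPM used a prior count of 2 and ratios a pseudocount of 0.5. Ratio tests were exact and two-sided, and correlations used 100000 permutations within groups (scipy 1.17.1). Coefficients of variation from counting cover counting error only. RefSeq sequences matched 1045 of the 1218 names, and 3′ UTRs came from GENCODE vM21.

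Named were all members, for miR-29a-3p and miR-29c-3p the 5 most correlated miRNAs outside the family, and the called miRNAs of both pathway lists (at most 5 each). Markers named otherwise, and the miRNAs most alike without library 3, were chosen after their values were seen. The members and lists were chosen with earlier results of these data known.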

Additional observations from a re-analysis of the deposited data

Results flagged for a closer look

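In 30 sets of values (7 members and 3 ratios in 3 groups), a library whose gap to its nearest neighbour took an unusually large part of the group's range was looked for with Dixon's test. It marked 5, where chance gives about 1 in 20. In the reference, library 3 had 290 CPM of miR-29c-3p, the next lowest library having 552, and a miR-29a-3p to miR-29c-3p ratio of 9.14, the next highest being 5.30. In HFepa, library 19 had 112 CPM of miR-29b-3p, above the next at 94.8. In HFoleic, library 15 had 4.26 CPM of miR-29b-1-5p, above the next at 2.59 and from 18 reads. In HFoleic, library 23 had a miR-29a-3p to miR-29a-5p ratio of 507, above the next at 332, from 29 reads of miR-29a-5p.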

How the results depend on the processing

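No member was called and no ratio passed under any alternative run with all libraries, or with libraries 1 to 11 or 12 to 23 alone. Of 170 alternative values of the log2 fold changes, 159 kept their sign and 11 turned, none of them called, and the cause was not tested. With library sizes in place of TMM factors miR-29a-3p was at -0.031 in HFoleic vs. reference and miR-29b-3p at -0.042 in HFepa vs. reference. With quantile normalization miR-29b-1-5p and miR-29a-5p were at 0.028 and 0.070 in HFoleic vs. reference, and miR-29a-5p at 0.000149 in HFepa vs. reference. With no filter and with at least 10 counts in every library miR-29b-3p was at -0.00418 and -0.00771 in HFepa vs. reference. The term for library numbers put miR-29a-3p at -0.095 in HFoleic and at -0.043 in HFepa vs. reference, and miR-29b-3p at -0.042 in HFepa. Libraries 1 to 11 alone put miR-29a-3p at -0.089 and its ratio to miR-29a-5p at -0.016 in HFoleic vs. reference. Calls over all tested miRNAs were 48 in HFoleic vs. reference, against 25 with DESeq2, 29 with no filter, 10 with limma, 7 with only the 2 groups compared, 1 with the library-number term and 0 among libraries 1 to 11, and 61 in HFepa vs. reference, against 40 with only the 2 groups, 25 with limma and 0 with that term. A filter of 10 counts in every library left 5 of the 7 members.

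Leaving out each library in turn, no member was called. Calls over all tested miRNAs then ranged from 12 to 53 in HFoleic vs. reference, with 12 without reference library 5 and 24, 21 and 20 without HFoleic libraries 13, 14 and 15. They ranged from 32 to 66 in HFepa vs. reference, with 36 without reference library 5 and 38, 38 and 32 without HFepa libraries 16, 18 and 22. In HFepa vs. HFoleic there was 1 without HFepa library 19 and 0 with all libraries. Log2 fold changes that turned ranged from -0.23 to 0.097 (miR-29b-1-5p) and from -0.10 to 0.091 (miR-29a-5p) in HFoleic vs. reference, from -0.037 to 0.058 (miR-29b-3p) and from -0.011 to 0.14 (miR-29c-3p) in HFepa vs. reference, and from -0.37 to 0.021 (miR-29b-1-5p) and from -0.19 to 0.028 (miR-29b-2-5p) in HFepa vs. HFoleic. The miR-29a-3p to miR-29c-3p ratio in HFepa vs. HFoleic ranged from 0.13 to 0.19 and passed without HFepa library 19 or HFoleic library 23. The miR-29a-3p to miR-29a-5p ratio ranged from -0.045 to 0.16 in HFoleic vs. reference and from 0.20 to 0.37 in HFepa vs. reference, where it passed without HFepa library 19. The miR-29c-3p to miR-29c-5p ratio ranged from -0.17 to 0.065 in HFepa vs. reference. No paired analysis was possible because the labels give no replicate numbers that the groups share. The correlations without reference library 3, and the lists without reference library 3, 4 or 5 and with the library-number term, were added after seeing the data. Wide intervals limit what can be said of the 3 scarcest arms.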
